A study of Mus musculus with 44 samples.

Results

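Prg4, Gdf5, Scx, Tnmd, Mkx, Creb5 and Erg are genes of the joint surface and of tendon, taken here as the 7 rows of the count table that carry these symbols, out of 46831 genes. SLIM-seq, in which RNA bearing N6-methyladenosine (m6A) is pulled down with an antibody (IP) and sequenced beside the RNA before enrichment (input), gave the values. The data hold 44 libraries in 22 conditions, each with 2 libraries, and all mice were at postnatal day 3. The WT part, 32 libraries, consists of 2 IP and 2 input libraries of each of 8 sorted skeletal populations, namely SSC (skeletal stem cells), pBCSP and BCSP (progenitors), PCP (pro-chondrogenic progenitors), THY, BLSP, 6C3 and HEC. The other 12 libraries are titled Mettl3cko and cover SSC, pBCSP and BCSP. The study's methods give the controls as Mettl3 fl/fl mice and the knockouts as Mettl3 fl/fl mice that also carry Col2a1-Cre, which acts in cells with an active Col2a1 promoter and their progeny, on a C57BL/6J background and with both sexes used. The study describes replicates as independent biological experiments and day 3 samples as drawn from several litters, while how many mice gave a library is not given in the sources used here. The 7 genes were chosen by their measured values in these data, namely mRNA level and IP over input across the populations and the difference between genotypes, so their levels and ratios are a description and carry no test.

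Joints form where an interzone of flattened cells interrupts the cartilage template. Gdf5, a BMP family ligand, marks that interzone, and Prg4, which encodes lubricin, is made by the superficial layer of articular cartilage and by synovium. Erg, an ETS factor, and Creb5, a CREB/ATF factor, are regulators of articular cartilage, with Creb5 known for its action on Prg4. Scx and Mkx are transcription factors of the tendon lineage, and Tnmd encodes tenomodulin, a membrane protein of mature tendon cells. Mettl3 encodes the catalytic subunit of the enzyme that writes m6A on mRNA.

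Total counts ranged from 16480000 to 35856700 in the WT IP libraries, from 19795700 to 44046700 in the WT inputs, from 22056600 to 33126900 in the Mettl3cko IP libraries and from 30050200 to 35325500 in the Mettl3cko inputs. Replicates correlated across genes in log2 CPM (counts scaled by TMM to library size) at 0.912 to 0.969 in WT inputs, 0.788 to 0.879 in WT IP and 0.872 to 0.905 in Mettl3cko inputs, but only at 0.484, 0.566 and 0.575 in the IP libraries of Mettl3cko SSC, pBCSP and BCSP. Mettl3, the targeted gene, was higher in the knockout inputs of SSC and pBCSP and lower in those of BCSP, without overlap in any. It measured 15.8 ± 0.057 CPM (SD, n = 2) in WT SSC against 17.9 ± 1.28 in Mettl3cko SSC. For pBCSP it was 14.6 ± 2.89 against 23.2 ± 0.348, and for BCSP 19.5 ± 1.23 against 17.5 ± 1.20. The study itself reports loss of Mettl3 by qRT-PCR and western blot, and lower m6A by dot blot and in its SLIM-seq data. A count over the whole gene cannot show the loss of an exon, and all 44 libraries carry wild type as their genotype entry, so these are called the libraries labelled Mettl3cko. Of the sorting markers, Thy1 measured 20.8 to 27.4 CPM in PCP, THY and BLSP and at most 0.273 in the other WT populations, and Enpep (6C3) measured 42.0 and 53.3 in 6C3 and HEC against 2.47 to 6.32 elsewhere. Tek (Tie2) reached 7.10 CPM in PCP, 6.04 in THY and 2.56 in BLSP. Itgav (CD51) measured 33.7 to 57.5 CPM in SSC, pBCSP and BCSP and 86.8 to 104 in the other WT populations. Cd200 measured 226 CPM in WT SSC, 24.4 in pBCSP and 215 in BCSP, and Eng (CD105) 48.8, 49.9 and 129. In the other WT populations Cd200 ranged from 8.20 (THY) to 95.6 (PCP) and Eng from 20.9 (BLSP) to 108 (6C3). Hlf, after which the HEC population is named, was not highest there (4.22 CPM, against 5.20 in BLSP).

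GGACT is a form of the sequence context in which m6A is most often written, so 4 of the genes are shown by a window that holds it. Each line gives 25 bases of a coding exon read from GRCm38 with GENCODE vM21, in the direction of transcription, with GGACT in capitals, at the last GGACT of the coding sequence that allows the full window. Prg4's window is chr1:150451921-150451945 (minus strand), Gdf5's chr2:155941744-155941768 (minus), Creb5's chr6:53388839-53388863 (plus) and Erg's chr16:95409795-95409819 (minus).
Prg4: aggctttggaGGACTaacagggaag
Gdf5: ccactgcgaaGGACTgtgtgagttc
Creb5: tcagcgagctGGACTgctcctttga
Erg: tccctcagcaGGACTggctgtctca

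Counted on the transcript strand of the longest coding transcript, GGACT occurred 2 times in Prg4, 5 in Gdf5, 1 in Scx, 2 in Tnmd, 2 in Mkx, 6 in Creb5 and 3 in Erg. Per kb this was 0.469 in Prg4, 2.16 in Gdf5, 0.966 in Scx, 1.48 in Tnmd, 0.548 in Mkx, 0.758 in Creb5 and 0.923 in Erg. Gdf5 was thus the densest of the 7 and Prg4 the sparsest, while 87.6% of 21901 genes held GGACT, with a median of 1.01 per kb. Scx and Mkx held none in their coding sequence. The letters mark a context, not a measured site, since gene counts do not place m6A along a transcript.

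Prg4 (ENSMUSG00000006014.16, chr1:150449412-150466165) had the largest span of the 7 genes, 65.1-fold between the highest and lowest WT input means. It was highest in HEC, with 7585 and 6084 CPM in the 2 input libraries (mean 6835 ± 1061, SD, n = 2), followed by pBCSP with 3248 and 3207 CPM, 6C3 with 1377 and 3417, SSC with 1685 and 1943 and BCSP with 1202 and 1482. THY held 206 and 255 CPM, PCP 156 and 161 and BLSP 106 and 105. Every library of the populations without Thy1 thus held at least 1202 CPM of Prg4 and every library of the Thy1-positive populations at most 255, and no neighbours overlapped in the order except pBCSP, 6C3 and SSC. The summed level of 8 chondrocyte markers, with Col2a1 on top, showed the same split: 40651 to 109980 CPM in those 5 populations and 6852 to 19558 in THY, PCP and BLSP. Among the 5 it did not follow Prg4, with 74016 to 95738 CPM in HEC against 91612 to 109980 in SSC. Within 6C3, replicate 2 was higher than replicate 1 both in Prg4 and in that sum (82953 against 40651 CPM). Gdf5, Creb5, Scx and Tnmd were higher in that library too, while Erg and Mkx were lower. The part of cartilage cells in the Prg4 levels was not tested, and in sorted bulk RNA fewer cells of a type and less RNA per cell cannot be told apart. Of the exon bases of Prg4, 204 are shared with the antisense gene Tpr, and whether counting used strand is not given in the sources used here.

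**Figure D1:**
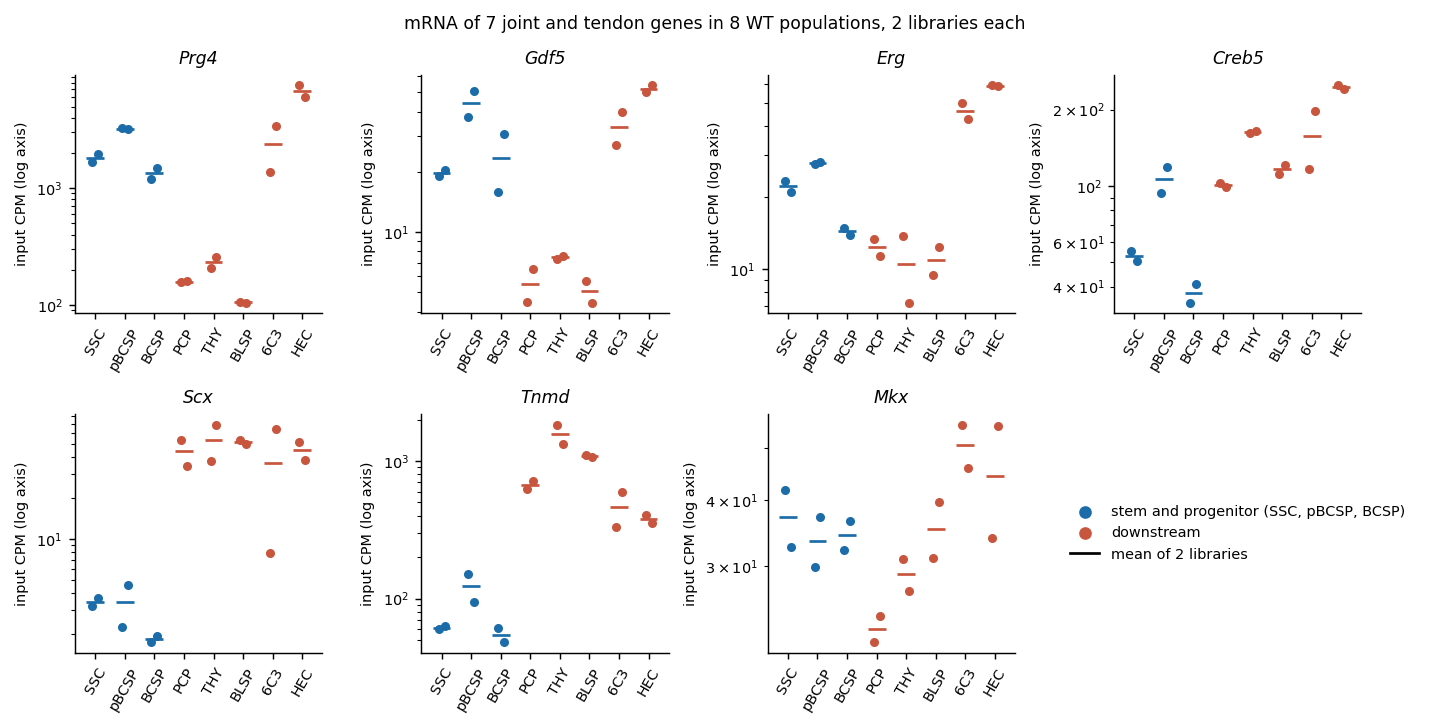
Input mRNA of the 7 genes in the 8 WT populations, with CPM on a log axis of its own in each panel, a point for each library (n = 2 per population), a bar for the mean, blue for SSC, pBCSP and BCSP and red for the others. Prg4, Gdf5, Erg and Creb5 are highest in HEC, Scx and Tnmd in THY, and Mkx spans only 2.22-fold.

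Gdf5 (ENSMUSG00000038259.4, chr2:155941023-155945367) followed Prg4 closely at a far lower level, with a span of 10.3-fold. HEC held 50.1 and 54.0 CPM, pBCSP 37.7 and 50.6, 6C3 27.3 and 40.0, BCSP 15.8 and 30.9 and SSC 19.1 and 20.4, while THY held 7.32 and 7.58, PCP 4.45 and 6.55 and BLSP 5.70 and 4.43. The same populations were high and low as for Prg4, without overlap between the 5 and the 3, but from HEC down to SSC each population overlapped the next. Over the 8 population means of log2 CPM, Gdf5 was the gene most like Prg4 of all genes tested (Pearson r = 0.988), ahead of Hhat at 0.983 and Itpr2 at 0.982. For Gdf5 itself Pstpip2 came above Prg4 at 0.990 and Tgfa below it at 0.982. These correlations rest on 8 points, and points share the sorting scheme. Gdf5 shares 936 exon bases with the antisense gene Gm15557, so its reads may be divided between them or mixed with those of that gene.

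Erg (ENSMUSG00000040732.20, chr16:95359169-95586593) spanned 5.65-fold and was also highest in HEC, at 59.1 and 58.8 CPM. It then measured 49.97 and 42.5 in 6C3, 27.7 and 28.1 in pBCSP, 23.4 and 21.0 in SSC, 14.9 and 13.9 in BCSP, 13.3 and 11.3 in PCP, 9.39 and 12.4 in BLSP and 13.7 and 7.21 in THY. The 5 populations from HEC to BCSP stood in an order without overlap between neighbours, and PCP, BLSP and THY overlapped. Since Erg is also a well-known endothelial gene, 12 endothelial markers were summed: they reached 227 to 252 CPM in PCP, 84.7 to 86.7 in HEC, 60.3 to 77.0 in 6C3, 29.7 to 64.4 in BCSP and 13.4 to 53.4 in the other populations. PCP, with the highest sum (Pecam1 at 46.1 CPM and Cdh5 at 9.60), was among the 3 lowest in Erg, and HEC and 6C3, next in the sum, were the highest. The part of endothelial RNA in the Erg levels was not tested. Hhip, at r = 0.990, Fam83g at 0.988 and Rin2 at 0.978 were most like Erg over the 8 means.

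Creb5 (ENSMUSG00000053007.9, chr6:53287270-53700376) peaked in HEC as well, with 249 and 242 CPM, but its order below HEC differed from that of Prg4. THY held 162 and 164 CPM, 6C3 116 and 198, BLSP 111 and 121, pBCSP 94.2 and 119 and PCP 103 and 99.0, each overlapping the next. SSC, with 55.3 and 50.6 CPM, and BCSP, with 34.6 and 40.9, lay below all others and apart from each other. Creb5 was thus low in SSC and BCSP, where Prg4 was at 1202 CPM or more, and higher in THY and BLSP, where Prg4 was low. Plcd3 (r = 0.984) and Pcdhb14 (0.980) were among the genes most like it. Of its exon bases, 164 are shared with the snRNA gene Gm25818.

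Scx (ENSMUSG00000034161.8, chr15:76457452-76459458), which lies inside Bop1 without a shared exon base, fell into 2 ranges that spanned 28.7-fold. THY held 37.4 and 68.9 CPM, BLSP 52.9 and 49.3, HEC 51.8 and 38.2, PCP 53.5 and 34.5 and 6C3 7.88 and 64.4. SSC held 3.24 and 3.71, pBCSP 2.27 and 4.61 and BCSP 1.76 and 1.94. The upper 5 populations overlapped in sequence and all their libraries lay above all those of SSC, pBCSP and BCSP. The 6C3 mean of 36.1 ± 39.9 CPM (SD, n = 2) came from libraries that differed by more than the mean itself. Ubfd1 (r = 0.994), Ankib1 (0.992) and Tpm2 (0.992) were most like Scx.

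Tnmd (ENSMUSG00000031250.8, chrX:133850980-133865577) shared that split, with a span of 29.0-fold. It was highest in THY, at 1840 and 1321 CPM, then BLSP, at 1113 and 1065, PCP, at 631 and 717, 6C3, at 332 and 598, and HEC, at 408 and 353. The stem and progenitor populations were lowest, with 152 and 94.5 in pBCSP, 59.5 and 63.0 in SSC and 60.5 and 48.4 in BCSP. THY, BLSP and PCP stood apart from each other and from the rest, 6C3 overlapped HEC, and SSC overlapped BCSP. Across the 8 means Scx and Tnmd correlated at 0.948, Prg4 and Tnmd at -0.618. Apbb1ip (r = 0.997), Adcy7 (0.995) and Lhx8 (0.992) were closest to Tnmd. In SSC and BCSP, Lhx8 had a mean log2 CPM of -3.88, the value of 0 counts, and Apbb1ip -3.37 and -3.60, so both were near the floor there.

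Mkx (ENSMUSG00000061013.6) varied least, 2.22-fold. It measured 55.4 and 46.0 CPM in 6C3, 33.8 and 55.0 in HEC, 41.7 and 32.6 in SSC, 31.0 and 39.6 in BLSP, 32.1 and 36.5 in BCSP, 29.8 and 37.1 in pBCSP, 31.0 and 26.9 in THY and 21.5 and 24.1 in PCP. Neighbours overlapped throughout that order except THY and PCP, so this tendon factor did not share the split of Scx and Tnmd. Its closest gene, Rnf121, reached r = 0.955, the lowest best value among the 7. Mkx shares 201 exon bases with AC148004.2.

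Set against each other per length, as CPM per kb of the longest coding transcript, Prg4 had the highest level of the 7 in HEC (1603), pBCSP (757), 6C3 (562), SSC (426) and BCSP (315), and Tnmd had the highest level in THY (1168), BLSP (805) and PCP (498). In HEC the order of levels per kb continued with Tnmd at 281, Scx at 43.5, Creb5 at 31.1, Gdf5 at 22.4, Erg at 18.2 and Mkx at 12.2. In THY, Prg4 came after Tnmd at 54.1 and Scx was close to it at 51.4, and in SSC Tnmd came after Prg4 at 45.3 with the other 5 between 3.36 and 10.2.

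Across the 8 WT inputs all 7 genes were among those with an adjusted p under 0.05 in edgeR's quasi-likelihood F test, as were 40.1% of 20060 genes. Since the genes were picked for this pattern, that count is only a description. As a contrast of the mean of SSC, pBCSP and BCSP with that of PCP, THY, BLSP, 6C3 and HEC, the log2 fold change was 1.71 (SE 0.15) for Prg4 and 0.99 (0.16) for Gdf5. In this average of log2 levels both were higher on the stem and progenitor side, although each had its highest mean in HEC, a downstream population. The log2 fold change was -4.10 (0.38) for Scx, -3.38 (0.17) for Tnmd and -1.40 (0.12) for Creb5, which were higher downstream. Erg, at -0.08 (0.14), and Mkx, at -0.09 (0.13), lay near the median of all genes, -0.11. Over all genes 23.1% were called higher and 28.3% lower at an adjusted p under 0.05.

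The other genes of these programmes, which are not members, were tested in the same fit. Of 12 joint interzone and morphogen genes, all 12 differed across the 8 populations, of 15 tendon matrix genes all 15, of 8 superficial cartilage and synovium genes 7, of 9 tendon regulators 4 and of 9 relatives of Erg and Creb5 2, beside 40.1% of all genes. Among the widest ranges of population means, Cilp, a cartilage intermediate layer protein, ran from 75.9 CPM in BCSP to 2421 in HEC (adjusted p = 3.82e-09), and Kera, a small proteoglycan of the tendon and corneal matrix, from 4.46 in BCSP to 247 in THY (2.42e-08). Clu, which encodes clusterin, was highest in SSC at 915 CPM and lowest in THY at 91.6 (1.13e-07). Dcx, a microtubule protein also known from articular chondrocytes, was highest in HEC (3.21e-05) and Gdf6, a relative of Gdf5, in 6C3 (4.24e-06). Wnt16 had low counts, from 0 to 493, with its highest mean of 9.70 CPM in PCP (3.87e-04).

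In the contrast of stem and progenitor with downstream populations, tendon matrix genes were mostly higher downstream: 10 of 15 fell on the stem side, 3 rose and the median log2 fold change was -1.62, beside -0.11 for all genes. Kera changed by -3.92 (SE 0.21, edgeR adjusted p = 5.87e-10), Tnc, tenascin C, by -3.92 (0.25, 5.40e-09) and Col1a1 by -3.66 (0.12, 1.08e-11). The 3 that rose were Angptl7 (3.21), Comp (1.52), the cartilage oligomeric matrix protein, and Fmod (0.44), so the list did not move as a block. Osteoblast markers, a list that shares Col1a1, summed to 62370 to 141579 CPM in the downstream populations and 5549 to 11603 in SSC, pBCSP and BCSP. The part of bone cells in the tendon matrix values was not tested.

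In this contrast most superficial cartilage and synovium genes had the sign opposite to that of Prg4: 5 of 8 were lower on the stem side and 1 higher, with a median of -1.11. The summed level of the 8 was nevertheless highest in HEC, as was Prg4, at 4739 to 5102 CPM. Dkk3, a secreted protein of the Wnt inhibitor family, changed by -2.29 (SE 0.11, edgeR adjusted p = 2.81e-10), Cd55 by -2.12 (0.27, 7.67e-06) and Cilp by -1.83 (0.13, 1.78e-08), whereas Clu rose by 1.83 (0.11, 2.49e-09). Joint interzone genes were divided, with 4 of 12 higher (Wnt4, Nog, Enpp2 and Osr2), 6 lower and a median of -0.50. Wnt9a, an interzone Wnt ligand, changed by -2.84 (0.13, 1.80e-10) and Osr1, a zinc finger factor of connective tissue, by -1.82 (0.19, 7.86e-07), whereas Nog, a BMP antagonist, rose by 1.26 (0.16, 7.52e-06). Gdf6, at -0.31 (0.23, adjusted p = 0.274), did not pass the test. Clu, Angptl7, Comp, Fmod, Wnt4, Nog, Enpp2, Osr2 and Gdf6 are named in this contrast after their values were seen.

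Tendon regulators had 1 gene higher on the stem side, Egr1 (0.93, SE 0.13, edgeR adjusted p = 2.65e-05), and 2 lower, Eya1 (-1.14, 0.24, 8.24e-04) and Tgfbr2 (-0.64, 0.11, 1.52e-04), of 9 tested, with a median of -0.28. Among relatives of Erg and Creb5, Creb3l2 was higher (0.55, 0.10, 3.15e-04), Creb3l1 (-1.94, 0.22, 1.86e-06) and Fli1 (-0.43, 0.11, 4.24e-03) were lower, and the median was -0.31.

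**Figure D2:**
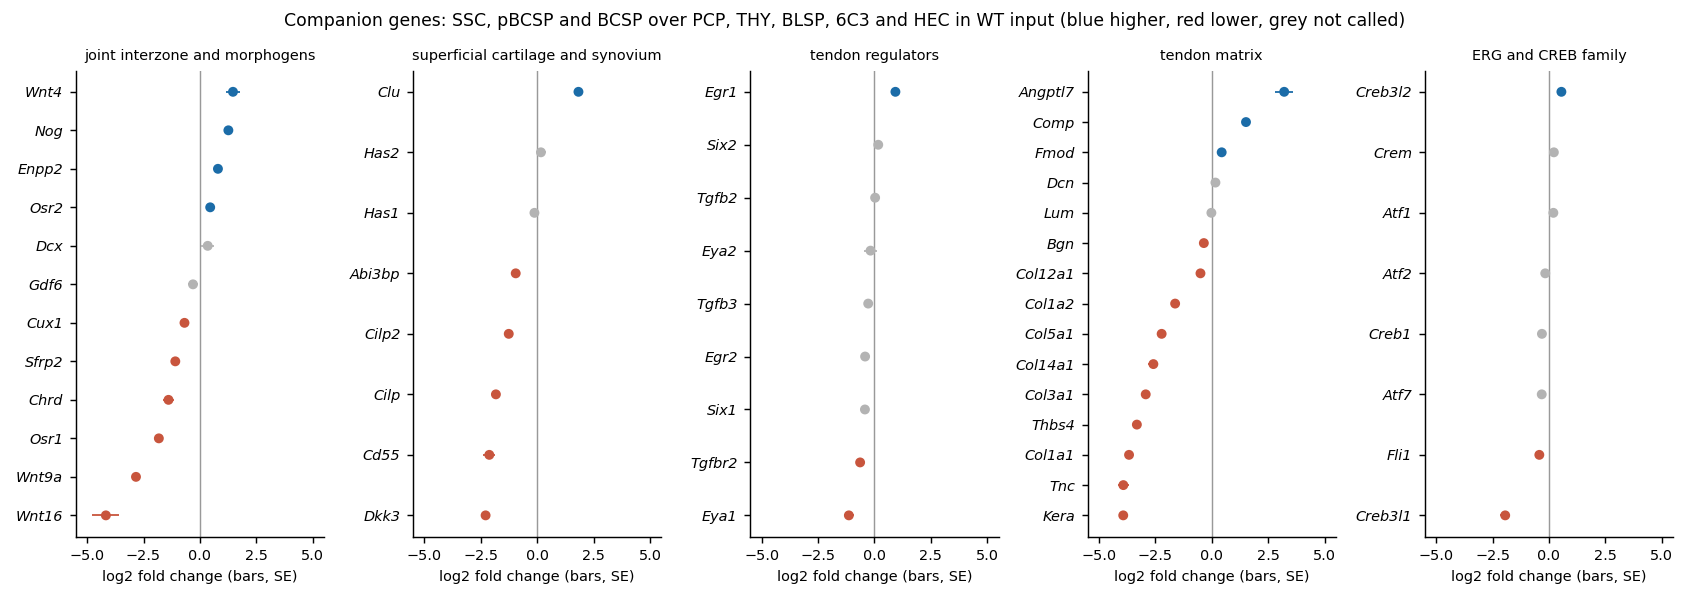
Log2 fold change of input mRNA in SSC, pBCSP and BCSP over PCP, THY, BLSP, 6C3 and HEC for the companion genes, by list, with bars for the standard error, blue for higher and red for lower at an adjusted p under 0.05 and grey for neither. Tendon matrix and superficial cartilage genes lie mostly below 0, with Angptl7, Comp and Clu on the other side, and Fev is left out because its standard error was too large to plot.

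Enrichment by the m6A antibody is given next as log2 IP over input, the difference in log2 CPM between IP and input libraries of the same replicate number. Prg4 had the highest mean ratio of the 7 in every population but BCSP, where Scx was above it. Its log2 ratios were 0.75 and 1.17 in SSC, 1.06 and 1.14 in pBCSP, 1.08 and 1.29 in BCSP, 1.34 and 1.29 in PCP, 0.88 and 1.08 in THY, 1.06 and 1.32 in BLSP, 2.47 and 1.46 in 6C3 and 1.02 and 1.31 in HEC. In all 8 populations both IP libraries held more Prg4 than both inputs. The population means lay between 0.96 and 1.31 apart from 6C3, at 1.97 ± 0.71 (SD, n = 2), although Prg4 mRNA itself spanned 65.1-fold. In the fits to all genes, leaving out libraries or changing the scaling moved the Prg4 value within 0.71 and 2.56.

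Gdf5, so like Prg4 in mRNA, was depleted from the IP in every population. Its mean log2 ratio was -1.16 in HEC and in THY, -1.65 in BCSP, -1.87 in 6C3, -2.05 in pBCSP, -2.88 in SSC, -3.51 in BLSP and -4.28 in PCP, where the 2 IP libraries held 0 and 24 counts. Its IP libraries lay below both inputs in 8 of 8 populations. Mkx was depleted in all 8 as well, with means from -1.999 in THY to -1.18 in SSC.

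Tnmd had positive means throughout, from 0.13 in THY to 1.08 in BCSP. Both its IP libraries exceeded both inputs in 6 of 8 populations, all but THY and HEC. Creb5 lay between -0.02 in pBCSP and 0.65 in 6C3 and was above the inputs without overlap in 5. Erg was above the inputs in SSC (0.10 and 0.85), pBCSP (0.13 and 0.92) and BCSP (0.34 and 0.78) and below them in PCP (-0.43 and -0.28) and 6C3 (-0.24 and -0.02). Scx had few counts in SSC, pBCSP and BCSP, and its ratio ranged from -0.69 in pBCSP to 1.85 ± 1.15 in BCSP.

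**Figure D3:**
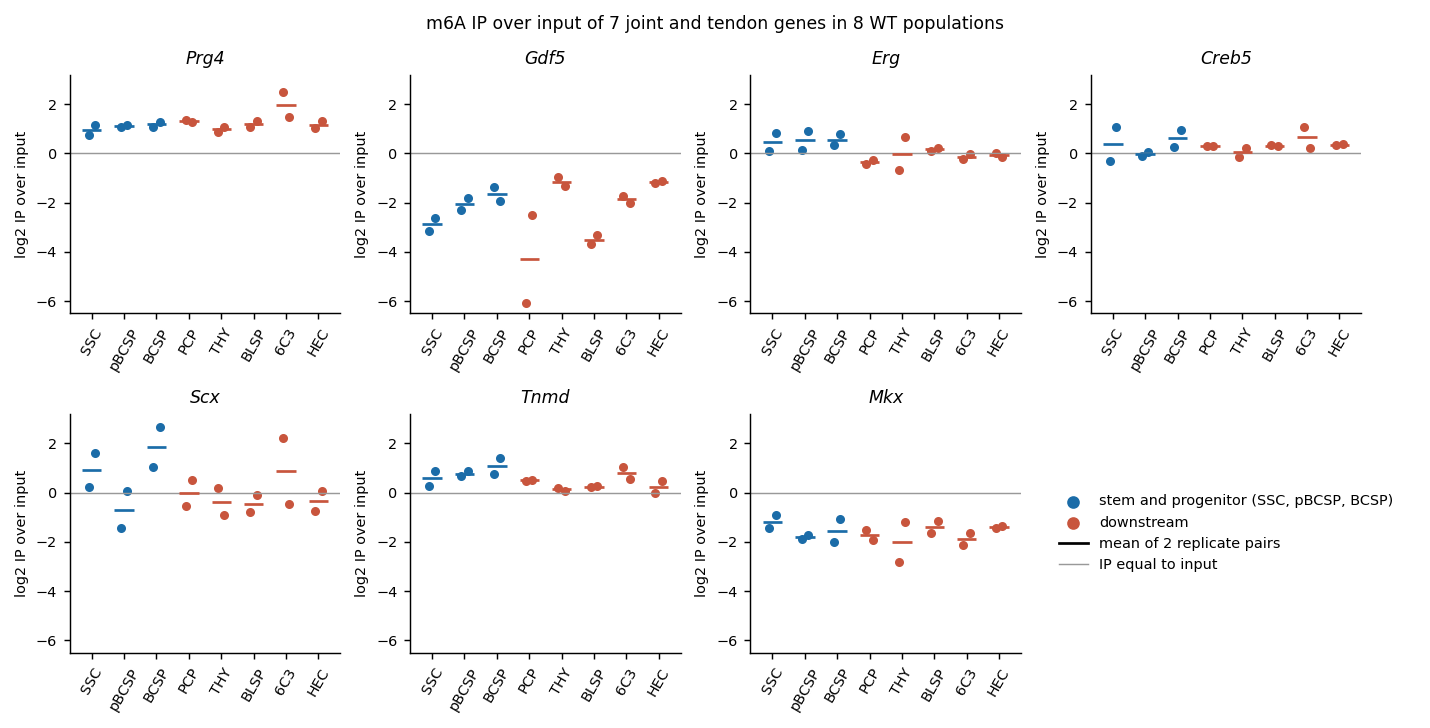
Log2 IP over input of the 7 genes in the 8 WT populations, each point a pair of libraries with the same replicate number, each bar the mean of 2 pairs, blue for SSC, pBCSP and BCSP and red for the others. Prg4 lies above 0 in every population, Gdf5 and Mkx lie below 0 in all 8, and the Scx and PCP Gdf5 points are far apart.

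By the study's threshold for m6A-tagged transcripts, a log2 fold change above 1 with an unadjusted p under 0.05, Prg4 was tagged in all 8 populations and Tnmd in BCSP, and none of the other 5 genes in any. The share of all genes past that threshold was 14.5% in 6C3, 13.5% in HEC, 12.4% in both THY and BLSP, 12% in pBCSP, 10.6% in PCP, 10.4% in SSC and 6.67% in BCSP. These counts rest on the same measure by which the genes were picked, so nothing is read from them.

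For the companion genes, tested at an adjusted p under 0.05, the enrichment of relatives ran in opposite directions. Has1 and Has2 both encode hyaluronan synthases. Has1 was lower in IP in 8 of 8 populations (log2 fold change -3.22 to -2.70, edgeR adjusted p from 1.76e-04 to 0.0419), and Has2 was higher in 7 of 8 (1.80 to 3.57 over all 8, adjusted p from 1.67e-03 to 0.0898). Has1 was also much the more abundant in mRNA, with 394 to 1257 CPM in WT inputs against 2.89 to 8.29 for Has2. Abi3bp, an extracellular matrix binding protein, was higher in IP in 7 of 8, Dkk3 was lower in 7, Cilp2 in 6 and Cilp in 5.

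Among tendon matrix genes, Comp (-1.68 to -1.11) and Fmod (-1.31 to -0.86) were lower in IP in 7 of 8 populations, Tnc, Col3a1 and Angptl7 in 5, while the fibril-associated collagens Col12a1 (0.86 to 1.53) and Col14a1 (0.86 to 1.64) were higher in 6 and 4. Tendon regulators held no gene higher in IP in any population: Tgfb3 (-2.03 to -1.43), a TGF-beta ligand, and Egr2 (-2.33 to -1.07) were lower in 7 each, and Tgfbr2 in 3. Of the joint interzone genes Wnt9a and Sfrp2 were lower in 5 and Gdf6, like Gdf5, in 4, while Dcx was higher in 3. Fli1 was higher in 4, Creb3l1 in 3 and Creb1 in 1. Cilp and Col14a1 are named here after their values were seen.

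Shares of all genes higher in IP at an adjusted p under 0.05 were 15.4% in HEC, 11.5% in BLSP, 11.1% in THY, 10.8% in 6C3, 9.15% in pBCSP, 4.85% in PCP, 4.14% in SSC and 0.848% in BCSP. Lower in IP were 17.8%, 16%, 14.9%, 15.3%, 10.9%, 7.48%, 5.27% and 2.31% in the same order. With the replicate number as a block, which pairs IP and input of the same sorted cells, the genes called in either direction went from 1485 to 2451 in SSC, from 507 to 1647 in BCSP and from 2289 to 5644 in PCP. The call of Has1 in SSC was lost without input replicate 1 (-3.28) or 2 (-3.23) and in PCP without IP replicate 1 (-2.68), with the size nearly as before. Without those SSC inputs the SSC calls of Has2 (2.94 and 2.55), Comp (-1.47 and -1.93), Fmod (-1.16 and -1.50), Dkk3 (-1.63 and -1.69), Egr2 (-1.68 and -1.83) and Tgfb3 (-1.83 and -2.15) were lost too. Without PCP IP replicate 1 no gene was called in PCP at all. Elsewhere the call of Abi3bp in BCSP was lost without input replicate 1 (1.25) or 2 (1.72), those of Comp (-1.32 and -1.48) and Cilp2 (-1.87 and -2.03) in 6C3 without either IP replicate, that of Has2 in BLSP without input replicate 2 (1.63), and those of Angptl7 (-1.94 and -1.88) and Tgfbr2 (-0.70 and -0.71) in THY without either input replicate. In pBCSP the call of Egr2 was lost without input replicate 2 (-1.22), that of Col12a1 without input replicate 1 (1.15), and that of Dcx without input replicate 1 (1.77) or 2 (2.06) and under the replicate block. Col12a1 lost its call in 6C3 without IP replicate 1 (1.42) and Tnc there without IP replicate 2 (-1.69), Sfrp2 in THY without input replicate 1 (-0.96), and Angptl7 in SSC without input replicate 1 (-2.48) or 2 (-2.60) and in HEC without input replicate 2 (-2.20). The PCP calls of Has2 (2.18), Comp (-1.87), Cilp2 (-2.29), Egr2 (-2.53), Tgfb3 (-2.55), Tnc (-1.46), Col3a1 (-1.88), Wnt9a (-2.12) and Sfrp2 (-1.19) were among those lost without IP replicate 1, and those of Tgfb3 (-1.29) and Col3a1 (-1.21) also without IP replicate 2. Fli1, Creb1, Creb3l1, Chrd and Gdf6 each lost a call without some library of the population too.

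**Figure D4:**
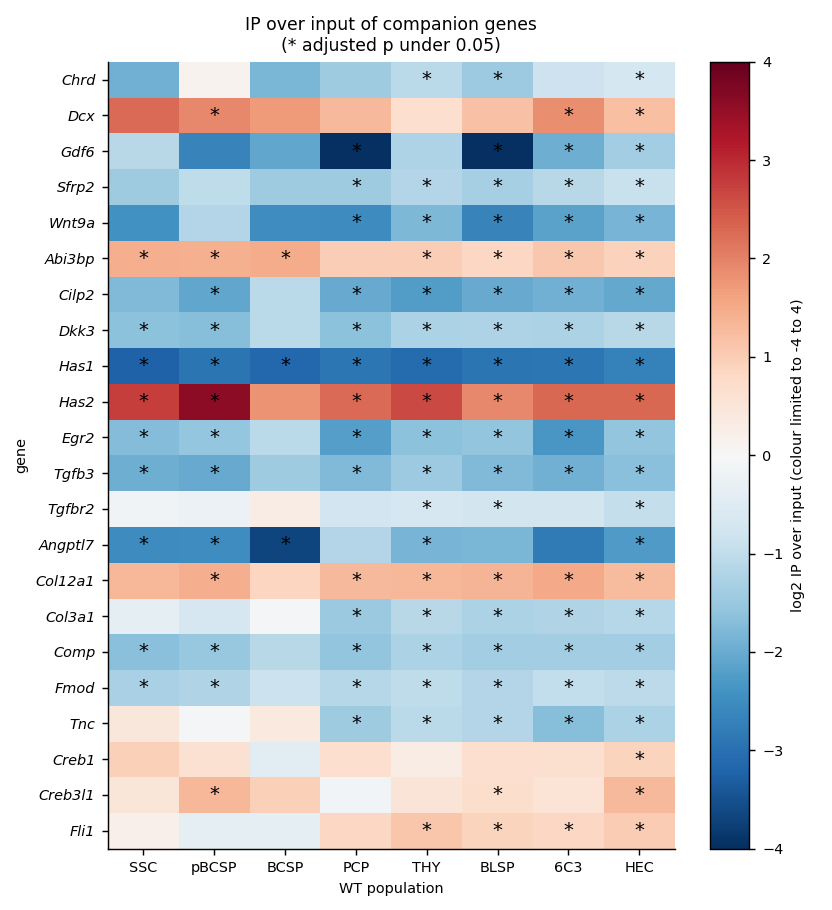
Fitted log2 fold change of IP over input for 22 companion genes in the 8 WT populations, with colour limited to -4 to 4 and a star where edgeR's adjusted p was under 0.05. Has1 is low in every column and Has2 high, and Comp, Fmod and Tgfb3 are low in 7 of 8 columns.

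Mettl3cko was compared with WT in the inputs of SSC, pBCSP and BCSP. Prg4 was lower in all 3, with no overlap between genotypes. In SSC it measured 1685 and 1943 CPM in WT and 453 and 517 in Mettl3cko, 3.74-fold lower (log2 fold change -1.90, SE 0.20). In pBCSP the values were 3248 and 3207 against 379 and 756 CPM, 5.69-fold lower (-2.49, SE 0.36), and in BCSP 1202 and 1482 against 404 and 621, 2.62-fold lower (-1.39, SE 0.26). Chondrocyte markers summed to 91612 to 109980 CPM in WT SSC and 63889 to 114652 in Mettl3cko SSC, to 92565 to 96414 and 56776 to 67727 in pBCSP and to 93310 to 107082 and 84581 to 102784 in BCSP. Those sums overlapped between genotypes in SSC and BCSP and were lower in Mettl3cko pBCSP, and the part of cartilage cells in the Prg4 difference was not tested.

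Gdf5 was lower without overlap in SSC (19.1 and 20.4 CPM in WT, 12.1 and 16.7 in Mettl3cko) and in pBCSP (37.7 and 50.6, against 22.8 and 25.6, 1.82-fold lower), and overlapped in BCSP (15.8 and 30.9, against 16.4 and 12.6). Scx, already low, measured 0.210 and 1.05 CPM in the SSC labelled Mettl3cko, 1.03 and 0.950 in their pBCSP and 0 and 1.21 in their BCSP (0 and 40 counts), below the WT libraries in each population. Mkx was lower in SSC (28.2 and 26.8 CPM, against 41.7 and 32.6 in WT) and overlapped in pBCSP and BCSP.

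Tnmd, Creb5 and Erg did not keep 1 direction. Tnmd was 2.36-fold lower in Mettl3cko SSC (33.8 and 18.1 CPM, against 59.5 and 63.0; log2 fold change -1.24, SE 0.30), overlapped in pBCSP (143 and 137, against 152 and 94.5) and was 1.86-fold higher in BCSP (121 and 81.1, against 60.5 and 48.4; 0.89, SE 0.27). Creb5 was lower in SSC (44.1 and 25.6 CPM, against 55.3 and 50.6) and pBCSP (56.1 and 69.7, against 94.2 and 119) and higher in BCSP (51.1 and 52.1, against 34.6 and 40.9). Erg overlapped in SSC (16.9 and 24.9 CPM, against 23.4 and 21.0), was 1.67-fold lower in pBCSP (17.7 and 15.7, against 27.7 and 28.1) and was higher in BCSP (15.8 and 25.5, against 14.9 and 13.9). Endothelial markers summed to 48.9 to 56.8 CPM in Mettl3cko SSC against 16.1 to 18.2 in WT, 20.4 to 25.2 against 13.4 to 19.7 in pBCSP and 47.8 to 89.4 against 29.7 to 64.4 in BCSP. The part of endothelial RNA in the Erg values was not tested.

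**Figure D5:**
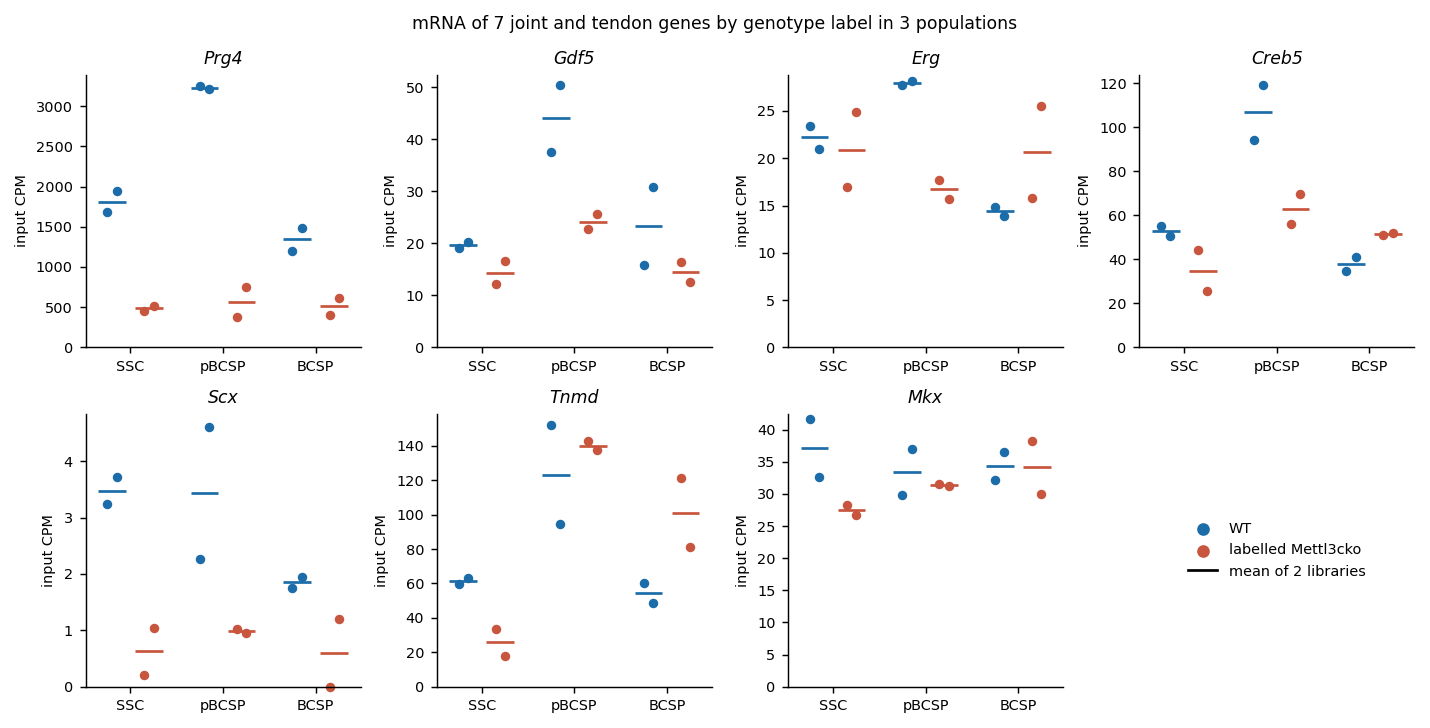
Input mRNA of the 7 genes in SSC, pBCSP and BCSP, WT in blue beside the libraries labelled Mettl3cko in red, with CPM on a linear axis from 0, each point a library (n = 2 per group) and each bar the mean. Prg4 is lower in Mettl3cko in all 3 populations, while Tnmd and Creb5 are lower in SSC and higher in BCSP.

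At the study's threshold for changed mRNA, a log2 fold change beyond 0.5 with an unadjusted p under 0.05, 3 members were lower in SSC (Prg4, Scx and Tnmd) beside 7.07% of all genes, 4 in pBCSP (Prg4, Gdf5, Creb5 and Erg) beside 4.48% and 1 in BCSP (Prg4) beside 5.72%. Tnmd was higher in BCSP, beside 7.22% of all genes, and no member was higher in SSC or pBCSP, beside 6.96% and 3.88%. Since the genes were picked partly by this difference between genotypes, nothing is read from these counts. No gene passed an adjusted p under 0.05 in edgeR in any of the 3 populations (0% each), where 2363, 1341 and 2123 genes had an unadjusted p under 0.05 and DESeq2 called 661, 158 and 548 at its adjusted p. Without Mettl3cko pBCSP replicate 2, the library with the higher Prg4 level, the genes past the study's threshold in pBCSP went from 1339 to 4456, and without WT pBCSP replicate 2 to 335.

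The ratio of IP to input was compared between genotypes by the interaction of fraction and genotype. For Prg4 the log2 ratio was 1.10 and 0.49 in Mettl3cko SSC, with 1.22 and 0.34 for pBCSP and 0.51 and 0.67 for BCSP, and the fitted change from WT was -0.15 (SE 0.39), -0.48 (0.43) and -0.60 (0.47). The Prg4 log2 ratio was above 0 in all 6 Mettl3cko pairs. Both IP libraries exceeded both inputs in Mettl3cko SSC and pBCSP, while in BCSP the IP libraries (574 and 986 CPM) overlapped the inputs (404 and 621). Prg4 was chosen by its values and these standard errors are large, so neither a loss of enrichment nor its absence is read from them. Scaling to all genes also hides a drop common to all transcripts. Erg had a higher ratio in Mettl3cko SSC, at 2.59 and 2.18 against 0.10 and 0.85 in WT (change 1.88, SE 0.59), and measured 1.24 and 0.99 in pBCSP and 0.99 and 0.74 in BCSP. Mkx held only 0 and 20 counts in the 2 IP libraries of Mettl3cko SSC and 0 and 195 in those of BCSP, and Gdf5 pairs were as far apart as -6.19 and -0.49 in SSC.

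Erg was past an unadjusted p under 0.05 upwards in SSC, beside 3.26% of all genes, and Mkx downwards, beside 11.3%. No member was past it in pBCSP, where 2.06% of genes were higher and 9.87% lower, or in BCSP, where 2.49% were higher and 7.82% lower. The members were picked partly by differences between genotypes, so these calls are only a description. At an adjusted p under 0.05 edgeR called 0% of genes in SSC, pBCSP and BCSP, where DESeq2 called 1759, 999 and 728 and where an unadjusted p under 0.05 was reached by 2505, 2087 and 1814. Leaving out IP replicate 1 of Mettl3cko SSC moved the number at an unadjusted p from 2505 to 7284, and the IP libraries of Mettl3cko were those whose replicates correlated least.

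Companion genes at the study's threshold, none of which passed an adjusted p, showed how far the other genes of the joint surface went with Prg4. In SSC 4 of 8 superficial cartilage and synovium genes were lower and 2 higher (median -0.57, all genes -0.02), in pBCSP 4 lower and 1 higher (median -0.58) and in BCSP 1 lower and 3 higher (median 0.39). Clu was lower in all 3, at 915 CPM in WT and 349 in Mettl3cko SSC (log2 fold change -1.38, SE 0.24, edgeR adjusted p = 0.152), by -1.72 (0.45, 0.569) in pBCSP and by -0.97 (0.24, 0.243) in BCSP. Cilp was lower in pBCSP, 326 against 77.4 CPM (-2.05, SE 0.35, 0.569). Has2 was higher in all 3, by 0.83 (0.32) in SSC, 1.71 (0.47) in pBCSP and 1.31 (0.43) in BCSP, and Cd55 in BCSP by 1.38 (0.33). Clu in BCSP and Has2 in SSC and pBCSP are named after their values were seen.

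Tendon matrix genes were mostly not past the threshold: 2 of 15 were lower in SSC (Angptl7, -1.40, SE 0.42, and Thbs4, -1.29, 0.27), 1 was higher in pBCSP and 4 were higher in BCSP. Kera was higher in pBCSP, 17.5 against 96.6 CPM (2.50, SE 0.48, edgeR adjusted p = 0.569), and in BCSP, 4.46 against 31.3 CPM (2.81, 0.37, 0.174), where Thbs4 was higher too (1.43, 0.24). The list's medians were -0.33, 0.12 and 0.37. Of the 12 joint interzone genes Osr2 was lower in SSC (-0.58, 0.23), Cux1 lower in pBCSP (-0.63, 0.25) and in BCSP Osr1 was higher (1.52, 0.55) and Enpp2 lower (-0.89, 0.32), with medians of -0.20, -0.15 and -0.27.

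Of the 9 tendon regulators 2 were higher and 2 lower in SSC, among them Six2 (1.34, SE 0.43) and Eya2 (-2.02, 0.80), none in pBCSP, and 3 higher and 1 lower in BCSP, among them Tgfb3 (0.69, 0.26) and Tgfb2 (0.61, 0.26), with medians of 0.15, -0.22 and 0.26. Among relatives of Erg and Creb5, none was past the threshold in SSC, Creb3l1 was lower in pBCSP (-0.94, 0.32) and Creb1 (-1.15, 0.46) and Fev were lower in BCSP, with medians of -0.11, -0.22 and -0.17. The calls of Cux1, Eya2, Six2, Creb1, Creb3l1, Osr1, Osr2, Enpp2, Tgfb2, Tgfb3 and Fev were each lost without at least 1 library, and that of Has2 in BCSP without WT input replicate 2 (0.92), whereas those of Clu in SSC and pBCSP and of Cilp in pBCSP held without any 1 library. Cux1 in pBCSP and Fev in BCSP were the weakest: with all libraries kept, each held its call in only 2 of 5 refits.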

How the data were processed

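Sorted skeletal cells of mice at postnatal day 3 were profiled as m6A IP and input. The authors trimmed reads with fastp 0.20.1, aligned them to GRCm38 with HISAT2 2.2.1 and counted reads per gene with featureCounts 2.0.1, and deposited those counts unnormalized, as whole numbers. The annotation and strand setting of the counting are not given in the sources used here. The authors also deposited tables of their own comparisons (mean normalized values, log2 fold changes, test statistics, p-values and calls of direction), which were not used. Of 46959 entries, 128 with the names 1-Mar or 2-Mar, at most 0.39% of a library's counts, were left out.

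The tests used edgeR 4.0.16 under R 4.3.3 (quasi-likelihood F test, TMM, filterByExpr, Benjamini-Hochberg over all genes of a fit, with limma 3.58.1), with 1 fit over the 16 WT inputs and 1 for each other comparison, and with DESeq2 1.42.0 as an alternative. Tables were handled with the package data.table (version 1.17.8) and plots with matplotlib 3.10.9 under Python 3.11.15. TMM factors over the 44 libraries scaled the CPM, with 2 as the prior count of log2 values. Only some of the edgeR comparisons were tried on simulated data, and the outcome is not reported here. The test across all WT populations and DESeq2's test were not among them. Intervals of counting error were not needed, since PCR copies are not separate molecules and 2 libraries set the error.

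Members, lists and tests were chosen with earlier results of these data known. The companion lists are joint interzone and morphogens, superficial cartilage and synovium, tendon regulators, tendon matrix, and the ERG and CREB family, with endothelial, chondrocyte, osteoblast, blood and muscle markers beside them. From each companion list and comparison up to 3 genes with the largest log2 fold change (or range of means) at an adjusted p under 0.05 were named, or, where none passed in IP or genotype comparisons, up to 2 at the study's thresholds, together with the 3 genes most correlated with each member. A correlated gene and a sequence window are not reported here. Blood markers summed to 6.16 to 89.7 CPM and muscle markers to 6.05 to 54.3 CPM in the input libraries.

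In the members' log2 ratios, IP and input of a replicate number were taken as paired, since the study divided sorted cells of a batch between them. The main edgeR fits of IP over input, and of its change with genotype, left this pairing out. Among the fits, only the alternative with a replicate block used it. In a check, the deviations of IP and input correlated across genes at 0.028 to 0.422 in WT and 0.064 to 0.082 in Mettl3cko. Replicate numbers do not pair WT with Mettl3cko mice (-0.038 to 0.024). Alternatives were the replicate block, DESeq2's size factors, library size alone, DESeq2's test, no filter on low counts, a prior count of 0.5 and leaving out each library.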

Additional observations from a re-analysis of the deposited data

Results flagged for a closer look

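Several members had both libraries of a population on opposite sides in different populations, and none of these differences between populations was tested. Tnmd mRNA in Mettl3cko was 0.424 times the WT level in SSC and 1.86 times it in BCSP, with no overlap between genotypes in either. Creb5 mRNA was 0.658 times the WT level in SSC and 0.590 times it in pBCSP, but 1.37 times it in BCSP. Erg mRNA was 0.598 times the WT level in pBCSP and 1.43 times it in BCSP. In the WT log2 ratio of IP over input, Erg was above the inputs in BCSP (0.56) and below them in PCP (-0.35). Scx was above them in BCSP (1.85) and below them in BLSP (-0.45), where its BCSP inputs held only 54 and 59 counts.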

How the results depend on the processing

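Over 1113 refits of the members' fold changes, 1070 moved by less than the spread of the replicates and 1043 kept their sign, and 133 of 168 levels stayed within the spread of replicates. Many of those refits left out 1 library, and leaving out 1 of 2 moves a group mean by less than their SD. Such refits stay within the spread largely by construction, so nothing is read from the count of 1070. For the companion genes named, 700 refits of IP over input kept the call and 83 lost it, 609 of 609 kept it across WT populations, and 157 kept it and 39 lost it between genotypes; none changed sign. Without a filter on low counts the genes past the study's threshold between genotypes in pBCSP went from 1339 to 2244, and adjusted calls rose to 2884, 1712 and 4377 for IP over input in SSC, BCSP and PCP, to 793, 245 and 540 between genotypes in SSC, pBCSP and BCSP, and to 90, 476 and 129 for the change of the ratio. With the replicate block the change of the ratio had 1183 genes in SSC and 1122 in BCSP at an unadjusted p, from 2505 and 1814, IP over input had 2451, 1647 and 5644 adjusted calls in SSC, BCSP and PCP, and genotype had 288 in SSC and 46 in BCSP; it moved no other count by over 1.5 times. Numbers do not pair mice between genotypes, so those 2 genotype values rest on a shared number alone. DESeq2 gave 3736, 2726 and 4240 adjusted calls for IP over input in SSC, BCSP and PCP, 661, 158 and 548 between genotypes, and 1759, 999 and 728 for the change of the ratio. The cause of these differences was not tested.

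Leaving out 1 library each, the calls ranged from 6951 to 8535 across populations and from 9458 to 10196 for stem against downstream. Tagged genes ranged from 791 to 3043 in SSC, 1409 to 2863 in pBCSP, 564 to 2051 in BCSP, 1243 to 2778 in PCP, 1363 to 3205 in THY, 1188 to 3374 in BLSP, 1735 to 3117 in 6C3 and 1531 to 3272 in HEC, the lowest without an input and the highest without an IP library. Adjusted calls of IP over input ranged from 0 (without input 1) to 7602 in SSC, 1079 to 5611 in pBCSP, 29 (without input 2) to 3870 in BCSP, 0 (without IP 1) to 3413 in PCP, 2283 to 8407 in THY, 2457 to 8423 in BLSP, 2782 to 4816 in 6C3 and 3518 to 8634 in HEC. Genotype calls ranged from 1020 (without WT input 2) to 3389 (without Mettl3cko input 1) in SSC, 335 to 4456 in pBCSP and 1444 to 2264 in BCSP, and adjusted ones from 0 to 458, 557 and 123. For the change of the ratio they ranged from 937 to 7284, 889 to 5430 and 738 to 3943, and adjusted from 0 to 4938, 2668 and 1154, each highest without Mettl3cko IP 1. A group left with 1 library was taken to vary like the others.

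With 2 libraries per group only large differences stand out, and Scx, Gdf5 and Mkx had IP counts down to 0. Library size alone moved the median of all genes from -0.11 to -0.21 for stem against downstream, from -0.02 to -0.18 for IP over input in THY and from -0.16 to -0.34 for the change of the ratio in SSC. The median change of the ratio was -0.26 in pBCSP and -0.10 in BCSP, and members' changes are given without taking these medians off. Erg between stem and downstream ranged from -0.18 to 0.03.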
